A study of Mus musculus with 26 samples.

Results

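Muscle-type genes are listed in the RNA-seq count table of a mouse embryonic stem cell (ESC) study of Esrrb, the gene of the orphan nuclear receptor ERR beta. The 8 genes described here are Des, Speg, Fhod3, Neb, Tagln, Chrnd, Slc4a3 and Atp2a3, out of 24421 genes in the table. They were picked as sarcomere, muscle cytoskeleton and muscle membrane genes of which several follow ERR beta in these data. They were thus chosen by their levels in the knockout, in the knockout given back wild-type ERR beta, and in wild-type cells. Differences that involve any of those 3 groups are given below as a description, with no test. All 8 passed the filter on low counts.

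The study compared 7 groups of 2 clones. In 6 groups the cells were Esrrb knockouts. Those named KO_mock had only the empty vector and those named KO_ERRb_wt regained the normal receptor. The returned receptor was a mutant with deficient binding to DNA in KO_ERRb_DBDm3, to the transcription factor TFIIH in KO_ERRb_DBDm6, and to coactivators in KO_ERRb_AF2M6. In KO_ERRg_wt the related receptor ERR gamma took its place. Cells with an intact Esrrb gene and the empty vector (WT_mock) were the control. The constructs were induced with doxycycline, and all groups, the controls included, had 2 µg/ml for 3 days on poly-L-ornithine and laminin in N2B27 medium that held the MEK inhibitor PD and the GSK3 inhibitor CH. Each clone is 1 established line, and what sets a line apart from the other line of its group goes into the spread between clones. Each clone gave 2 libraries, or 1 in KO_ERRg_wt, for 26 libraries from 14 clones, and the libraries of a clone were added. The p-values below therefore measure the spread between clones, with n = 2 per group.

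ERR alpha, beta and gamma are nuclear receptors with no known natural ligand that bind DNA at a motif written TNAAGGTCA. ERR alpha and ERR gamma are known in heart and skeletal muscle for genes of mitochondrial energy supply, and ERR beta is known in ESCs as a factor of naive pluripotency. In muscle the sarcomere is the contractile unit: nebulin (Neb) lies along its thin filaments, the formin FHOD3 assembles its actin in heart, and desmin (Des) filaments tie neighbouring Z-discs together. Sarcolemma and sarcoplasmic reticulum, the membranes that carry the signal to contract, hold calcium pumps, and receptors and ion exchangers such as the products of Chrnd and Slc4a3. Atp2a3 encodes a calcium pump of the endoplasmic reticulum that is found in many cell types besides muscle.

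Of the 8 genes, 4 had an entry in the RefSeq promoter table (GRCm38.p6, the same assembly as mm10): Des, Speg, Slc4a3 and Atp2a3. They are shown so that the ERR motif can be looked for in them. Each window has 250 bases before a transcription start and 50 bases from it, read 5′ to 3′ on the gene's plus strand. Capitals mark the shorter motif AAGGTCA on either strand. The Des window is chr1:75360042-75360341, the window of the first Speg start is chr1:75375047-75375346, the Slc4a3 window is chr1:75546212-75546511 and the Atp2a3 window is chr11:72960919-72961218.
Des: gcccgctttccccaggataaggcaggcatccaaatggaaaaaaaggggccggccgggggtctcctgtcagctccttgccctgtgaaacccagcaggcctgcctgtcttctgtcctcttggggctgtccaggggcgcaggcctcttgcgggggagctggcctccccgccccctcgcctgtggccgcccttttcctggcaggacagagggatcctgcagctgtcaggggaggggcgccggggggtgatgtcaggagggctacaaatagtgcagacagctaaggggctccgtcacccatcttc
Speg: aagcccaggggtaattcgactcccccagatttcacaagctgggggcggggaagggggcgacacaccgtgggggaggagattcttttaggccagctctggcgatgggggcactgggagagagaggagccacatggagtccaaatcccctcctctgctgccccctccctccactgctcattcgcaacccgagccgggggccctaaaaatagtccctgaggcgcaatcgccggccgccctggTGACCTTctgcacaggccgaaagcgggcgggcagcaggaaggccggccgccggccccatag
Slc4a3: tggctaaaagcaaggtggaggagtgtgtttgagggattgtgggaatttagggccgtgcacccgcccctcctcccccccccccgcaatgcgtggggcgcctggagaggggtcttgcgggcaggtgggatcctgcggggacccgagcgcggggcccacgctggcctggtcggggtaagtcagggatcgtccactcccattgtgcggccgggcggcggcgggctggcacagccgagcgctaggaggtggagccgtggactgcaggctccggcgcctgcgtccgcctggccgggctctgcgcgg
Atp2a3: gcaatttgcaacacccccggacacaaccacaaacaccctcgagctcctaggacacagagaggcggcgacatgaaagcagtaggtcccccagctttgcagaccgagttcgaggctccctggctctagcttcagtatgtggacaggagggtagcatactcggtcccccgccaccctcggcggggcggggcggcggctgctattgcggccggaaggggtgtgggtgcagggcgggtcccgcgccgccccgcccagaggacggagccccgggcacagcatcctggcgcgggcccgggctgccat

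The motif TNAAGGTCA had no match in these letters, on either strand, in the 7 windows of the 4 genes (1 for Des, 4 for Speg, 1 each for Slc4a3 and Atp2a3), and 1.28% of all 32851 windows of the table hold it. AAGGTCA, which TNAAGGTCA contains, had 1 match, on the reverse strand at bases -11 to -5 of the first Speg start, and 4.72% of all windows hold it. The CArG box, the motif of serum response factor in muscle promoters, had no match in the 7 windows, and 1.63% of all windows hold it. The windows were rich in G and C. The share was 65.3% in Des, 65.7% in the Speg window shown, 71.7% in Slc4a3 and 68.3% in Atp2a3, against a median of 52.7% over all windows.

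Library totals ran from 21276790 to 30021667 counts, and clone totals from 25103562 to 54105869. Levels are CPM, counts scaled to library size with TMM factors. Esrrb averaged 277 ± 0.744 CPM in KO_mock and 581 ± 29.9 CPM in WT_mock (SD, n = 2 clones each), so reads of the locus remained in the knockout, and gene counts do not separate a construct from the locus. In the construct groups mean Esrrb was 420 CPM with KO_ERRb_wt, 517 with KO_ERRb_DBDm3, 530 with KO_ERRb_DBDm6, 451 with KO_ERRb_AF2M6 and 471 with KO_ERRg_wt, whose label names no ERR beta construct. Esrrg had 6381 and 3152 counts in the 2 KO_ERRg_wt clones and at most 12 in any other clone. Whole chromosomes also differed between groups. Relative to WT_mock, the median gene of chromosome 6 lay between −0.94 and −0.33 on the log2 scale in the clones of the 3 mutants and of KO_ERRg_wt, that of chromosome 8 between −0.53 and −0.43 in the same clones, and that of chromosome 14 between −0.62 and −0.50 in every knockout clone. None of the 8 genes lies on chromosome 6, 8 or 14.

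Des (mm10 chromosome 1, 75360292 to 75368579, plus strand, 9 exon entries) is the gene of desmin, the intermediate filament protein of muscle. It had 2.77 and 4.15 CPM in KO_mock, 10.8 and 6.55 in KO_ERRb_wt, 4.65 and 6.26 in KO_ERRb_DBDm3, 9.08 and 12.3 in KO_ERRb_DBDm6, 6.38 and 3.59 in KO_ERRb_AF2M6, and 12.1 and 11.5 in KO_ERRg_wt, against 35.8 and 22.1 CPM in WT_mock. Both WT_mock clones stood above all 12 knockout clones. The KO_mock level was 12.0% of the WT_mock level, with a log2 fold change of −3.06 ± 0.36 (SE here and below). Wild-type ERR beta brought it to 29.9% of WT_mock, below the 36.9% with KO_ERRb_DBDm6 and the 40.8% with KO_ERRg_wt, and the clones of these 3 groups overlapped in turn. In bulk RNA, fewer cells with the transcript and less transcript per cell cannot be told apart, here and for every gene below.

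Speg (chromosome 1, 75375297 to 75432306, plus strand, 96 exon entries) codes for a kinase of striated muscle related to myosin light chain kinase. Its level was 2.57 and 2.55 CPM in KO_mock, 6.88 and 5.23 in KO_ERRb_wt, 2.52 and 3.14 in KO_ERRb_DBDm3, 3.98 and 4.71 in KO_ERRb_DBDm6, 3.08 and 2.83 in KO_ERRb_AF2M6, and 5.23 and 4.34 in KO_ERRg_wt, against 8.21 and 7.004 CPM in WT_mock. The lowest group was KO_mock at 33.7% of WT_mock (log2 fold change −1.57 ± 0.20), and KO_ERRb_wt came to 79.6%. KO_ERRb_wt, KO_ERRg_wt and KO_ERRb_DBDm6 formed a run of neighbours whose clones overlapped in turn, as did KO_ERRb_AF2M6, KO_ERRb_DBDm3 and KO_mock below them.

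**Figure D1:**
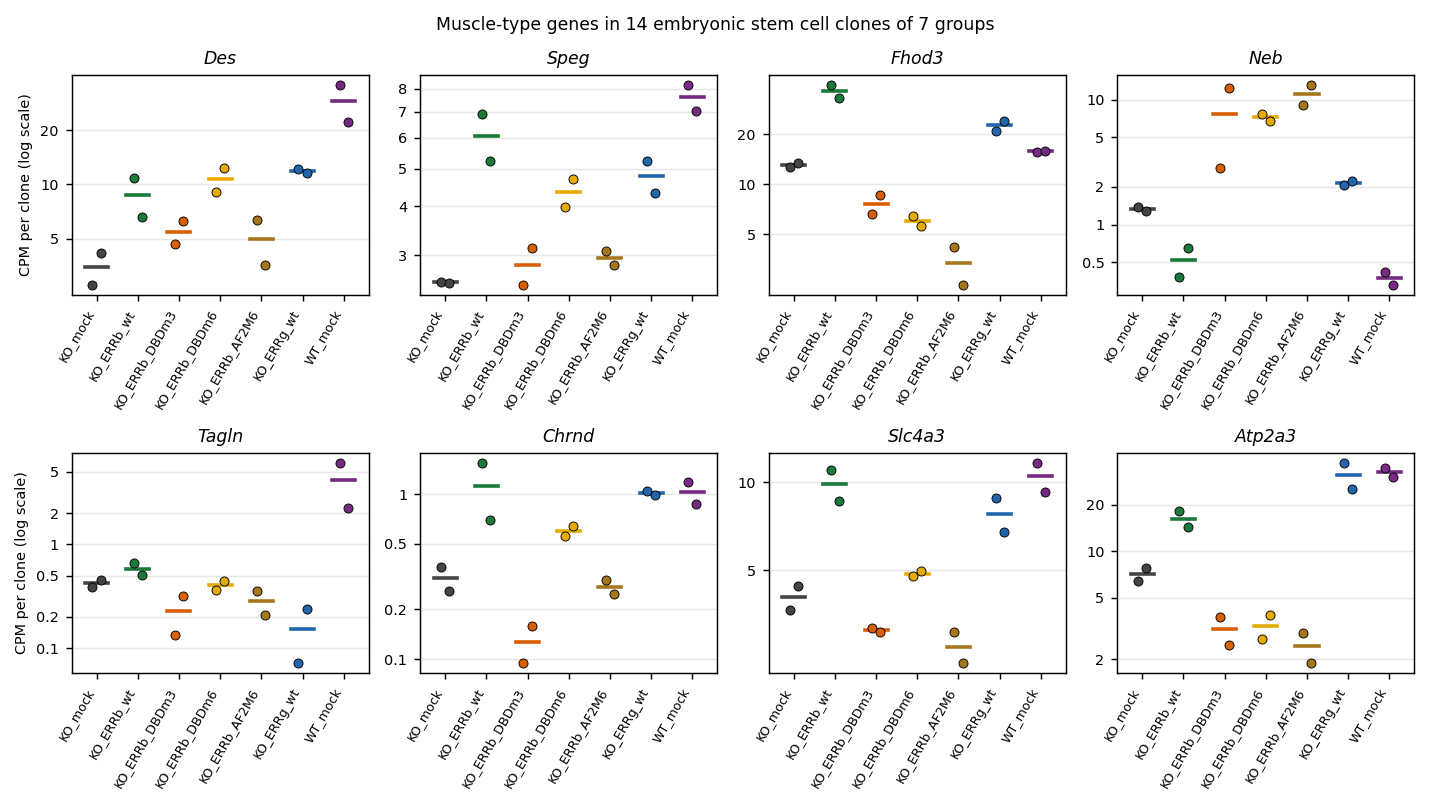
Levels of the 8 muscle-type genes in CPM (log scale, a separate scale for each gene) in the 2 clones of each of 7 groups. Points are clones and lines are group means. WT_mock is the highest group for Des, Speg, Tagln, Slc4a3 and Atp2a3 and the lowest for Neb, and Fhod3 is highest in KO_ERRb_wt, with 33.3 and 40.0 CPM.

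Fhod3 (chromosome 18, 24708623 to 25133507, plus strand, 78 exon entries) codes for a formin that assembles actin filaments in heart muscle. Fhod3 had 12.8 and 13.5 CPM in KO_mock, 40.0 and 33.3 in KO_ERRb_wt, 6.62 and 8.67 in KO_ERRb_DBDm3, 6.40 and 5.57 in KO_ERRb_DBDm6, 4.19 and 2.48 in KO_ERRb_AF2M6, and 21.1 and 24.3 in KO_ERRg_wt, against 15.7 and 15.9 CPM in WT_mock. None of the 7 groups overlapped its neighbour in the order of means. KO_mock differed little from WT_mock (−0.27 ± 0.20), whereas KO_ERRb_wt was at 232% of WT_mock and KO_ERRg_wt at 144%. All 6 clones with a mutant lay below both KO_mock clones, with log2 fold changes against KO_mock of −0.78 ± 0.20 for KO_ERRb_DBDm3, −1.13 ± 0.21 for KO_ERRb_DBDm6 and −1.97 ± 0.22 for KO_ERRb_AF2M6. The mutant groups and the wild-type receptor groups therefore stood on opposite sides of KO_mock.

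Neb (chromosome 2, 52136647 to 52338798, minus strand, 157 exon entries) encodes nebulin, the giant protein of the thin filament, and was the one gene of the 8 that was lowest in WT_mock. Neb had 1.39 and 1.28 CPM in KO_mock, 0.381 and 0.653 in KO_ERRb_wt, 2.84 and 12.4 in KO_ERRb_DBDm3, 7.67 and 6.75 in KO_ERRb_DBDm6, 9.13 and 13.2 in KO_ERRb_AF2M6, and 2.08 and 2.25 in KO_ERRg_wt, against 0.419 and 0.330 CPM in WT_mock. WT_mock and KO_ERRb_wt overlapped at the bottom, KO_mock lay above both, and the 3 mutants overlapped in turn at the top. The log2 fold change was 1.82 ± 0.66 in KO_mock against WT_mock and 3.07 ± 0.54 in KO_ERRb_AF2M6 against KO_mock. The clones 9-6 and 9-8 of KO_ERRb_DBDm3 differed more in Neb than the clones of any other group did.

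Neb was higher in the clones with the larger downward shift of chromosome 6, and this shift went largely with the groups. In the 5 clones whose median chromosome 6 gene lay between −0.94 and −0.91 relative to WT_mock (9-8, both KO_ERRb_DBDm6 and both KO_ERRb_AF2M6), Neb had 6.75 to 13.2 CPM. Clone 9-6 and the 2 KO_ERRg_wt clones, at −0.41, −0.33 and −0.33, had 2.84, 2.08 and 2.25 CPM. The 6 clones of KO_mock, KO_ERRb_wt and WT_mock, within 0.04 of WT_mock there, had 0.330 to 1.39 CPM. Among these, KO_mock had 1.39 and 1.28 CPM and the clones of KO_ERRb_wt and WT_mock had 0.330 to 0.653, so Neb also differed between groups without this shift. Neb itself is on chromosome 2, whose median gene moved by at most 0.11. Since the shift goes largely with group, its part in the Neb levels cannot be told apart from that of group and was not tested.

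Tagln (chromosome 9, 45929628 to 45936058, minus strand, 5 exon entries) encodes transgelin, an actin-binding protein of smooth muscle. Tagln had 0.387 and 0.454 CPM in KO_mock, 0.662 and 0.506 in KO_ERRb_wt, 0.133 and 0.319 in KO_ERRb_DBDm3, 0.364 and 0.441 in KO_ERRb_DBDm6, 0.358 and 0.206 in KO_ERRb_AF2M6, and 0.0717 and 0.237 in KO_ERRg_wt, against 6.11 and 2.22 CPM in WT_mock. These were 2 to 33 counts in a knockout clone, against 306 and 108 counts in WT_mock clones. The log2 fold change was −3.30 ± 0.52 in KO_mock and −2.83 ± 0.50 in KO_ERRb_wt, each against WT_mock. Wild-type ERR beta left Tagln at 14.0% and ERR gamma at 3.70% of the WT_mock level. Tagln was the one gene of the 8 whose 12 knockout clones all stayed under 1 CPM while both WT_mock clones were above it.

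Chrnd (chromosome 1, 87190597 to 87200070, plus strand, 12 exon entries) is the gene of the delta subunit of the acetylcholine receptor of the neuromuscular junction. It had 5 to 77 counts per clone. Chrnd had 0.364 and 0.260 CPM in KO_mock, 1.54 and 0.696 in KO_ERRb_wt, 0.0948 and 0.159 in KO_ERRb_DBDm3, 0.557 and 0.641 in KO_ERRb_DBDm6, 0.302 and 0.248 in KO_ERRb_AF2M6, and 1.04 and 0.986 in KO_ERRg_wt, against 1.18 and 0.865 CPM in WT_mock. The KO_ERRb_wt, WT_mock and KO_ERRg_wt clones overlapped in turn at the top, at 110%, 100% and 99.1% of WT_mock. KO_mock was at 30.5% (−1.71 ± 0.41) and KO_ERRb_DBDm3 at 12.4%.

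Slc4a3 (chromosome 1, 75546266 to 75559431, plus strand, 23 exon entries) encodes AE3, the chloride and bicarbonate exchanger of heart and brain. Its level was 3.66 and 4.43 CPM in KO_mock, 11.0 and 8.64 in KO_ERRb_wt, 3.19 and 3.07 in KO_ERRb_DBDm3, 4.77 and 4.97 in KO_ERRb_DBDm6, 3.08 and 2.41 in KO_ERRb_AF2M6, and 8.82 and 6.75 in KO_ERRg_wt, against 11.6 and 9.27 CPM in WT_mock. WT_mock, KO_ERRb_wt and KO_ERRg_wt overlapped in turn, while KO_ERRb_DBDm6 and KO_mock each stood apart below them. KO_mock was at 38.8% of WT_mock (−1.37 ± 0.20), and KO_ERRb_wt at 94.0%.

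Atp2a3 (chromosome 11, 72961169 to 72993043, plus strand, 65 exon entries) encodes SERCA3, a calcium pump of the endoplasmic reticulum that is found in many cell types besides muscle. Atp2a3 had 6.41 and 7.81 CPM in KO_mock, 18.2 and 14.3 in KO_ERRb_wt, 3.77 and 2.48 in KO_ERRb_DBDm3, 2.698 and 3.87 in KO_ERRb_DBDm6, 2.98 and 1.90 in KO_ERRb_AF2M6, and 37.3 and 25.4 in KO_ERRg_wt, against 34.3 and 30.3 CPM in WT_mock. KO_ERRg_wt, at 96.9% of WT_mock, overlapped WT_mock, and KO_ERRb_wt lay below both at 50.3%. As for Fhod3, all 6 mutant clones were under both KO_mock clones, with log2 fold changes against KO_mock of −1.18 ± 0.28 for KO_ERRb_DBDm3, −1.11 ± 0.28 for KO_ERRb_DBDm6 and −1.54 ± 0.29 for KO_ERRb_AF2M6. The KO_mock clones themselves were at 22.02% of WT_mock (−2.18 ± 0.27).

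Per kilobase of exon, the scale on which levels of different genes can be compared, the highest WT_mock level was that of Des, at 9.45 CPM per kb, followed by Atp2a3 at 7.01, Tagln at 2.63, Fhod3 at 2.53, Slc4a3 at 2.35, Speg at 0.638, Chrnd at 0.345 and Neb at 0.0167. In KO_mock the order began with Fhod3 at 2.11, Atp2a3 at 1.54 and Des at 1.13 CPM per kb. Esrrb itself was at 59.8 CPM per kb in KO_mock and 126 in WT_mock, far above each of the 8. No exon base of the 8 genes was shared with a gene on the same strand, and 7.24% of the bases of Des, 5.99% of Tagln and 0.253% of Neb lay opposite to a gene on the other strand. The counting used strand.

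Differences of means among the 3 mutants and ERR gamma use neither the knockout with empty vector, nor the wild-type receptor group, nor wild-type cells. The filter, the scaling and the spread behind the p-values were estimated from all 14 clones, those 3 groups included. In these comparisons among mutants and ERR gamma each gene was tested with edgeR's quasi-likelihood test. P was adjusted by Benjamini-Hochberg over all 15238 tested genes, with a call at an adjusted p below 0.05. The 8 genes were chosen with earlier results of these data known, so these tests may not be independent of the choice. With ERR gamma, 6 of the 8 genes were higher than with the DNA-binding deficient ERR beta (KO_ERRg_wt against KO_ERRb_DBDm3), 1 was lower and 1 was not called, where 24.1% of all tested genes were called. The median log2 fold change was 1.22 over the 8 genes and 0.0011 over all genes. Atp2a3 rose the most, at 31.3 ± 8.40 CPM in KO_ERRg_wt and 3.13 ± 0.915 CPM in KO_ERRb_DBDm3 (SD, n = 2 each), a log2 fold change of 3.32 ± 0.29 (edgeR adjusted p = 0.000121). Chrnd rose by 2.99 ± 0.49 (edgeR adjusted p = 0.00229), Fhod3 by 1.57 ± 0.21 (0.00077), Slc4a3 by 1.31 ± 0.21 (0.00189), Des by 1.12 ± 0.35 (0.0384) and Speg by 0.76 ± 0.20 (0.0198).
Neb fell in the same comparison (−1.81 ± 0.53, edgeR adjusted p = 0.0314), and Tagln, at 2 to 14 counts per clone, had −0.54 ± 0.85 (adjusted p = 0.675). With 1 clone left out at a time, Fhod3, Chrnd, Slc4a3 and Atp2a3 were called in all 4 settings, Speg in 1, Neb in 1 and Des in none. Without clone 9-8, KO_ERRb_DBDm3 was clone 9-6 alone. In that setting Speg, Fhod3, Chrnd, Slc4a3 and Atp2a3 were called higher, and Neb had −0.40 and was not called. The median chromosome 6 gene lay at −0.33 in both KO_ERRg_wt clones and −0.41 in 9-6. Leaving out 9-8 changes the clone, the number of clones and this shift together, so the part of the shift was not tested.

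**Figure D2:**
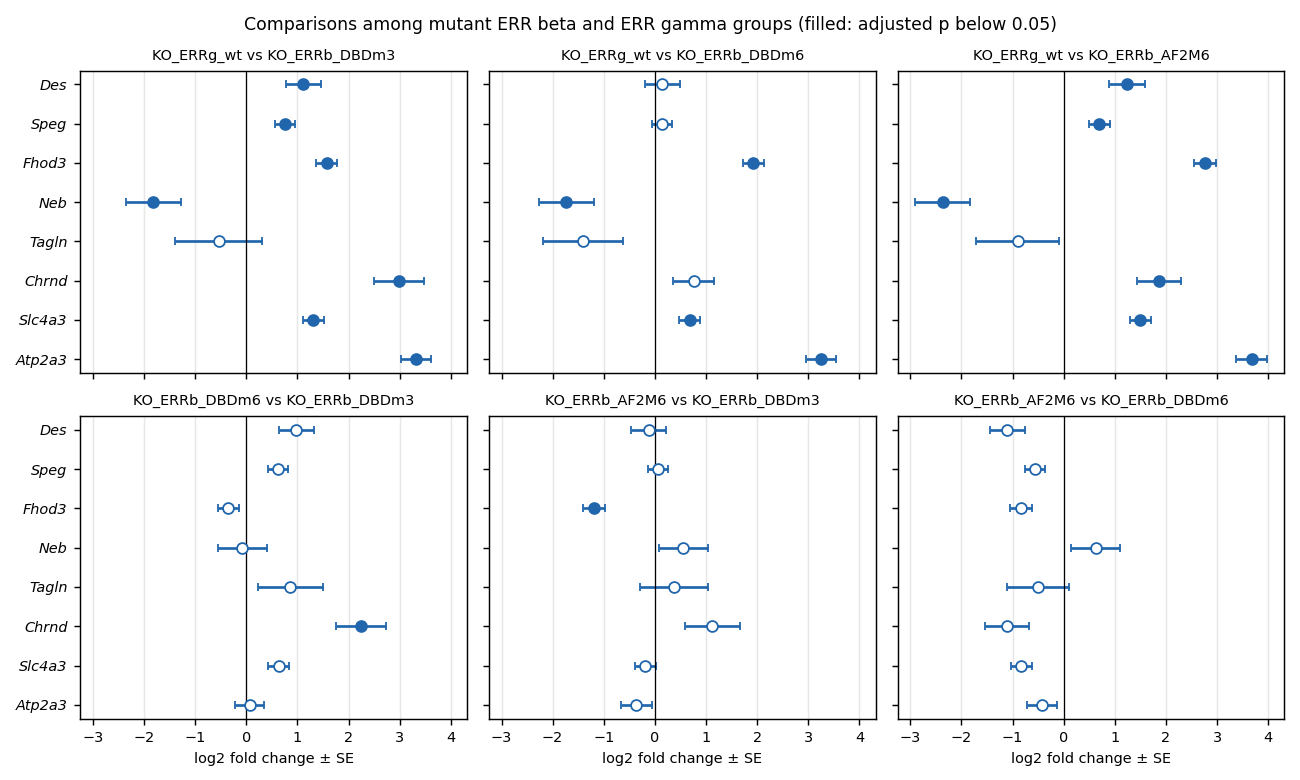
Log2 fold changes with their standard errors (bars) for the 8 genes in 6 comparisons among mutant ERR beta and ERR gamma groups, with filled points at an edgeR adjusted p below 0.05. In the 3 comparisons with KO_ERRg_wt on top, 6, 3 and 6 genes are called higher and Neb is called lower, and in the 3 comparisons between mutants Chrnd and Fhod3 are called once each.

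Against the coactivator-binding deficient ERR beta (KO_ERRg_wt against KO_ERRb_AF2M6), the same 6 genes rose, Neb fell and Tagln was not called, where 33.8% of all tested genes were called. The median was 1.37 over the 8 genes, against 0.007 over all genes. Atp2a3 had 31.3 ± 8.40 CPM in KO_ERRg_wt and 2.44 ± 0.765 CPM in KO_ERRb_AF2M6 (3.68 ± 0.30, edgeR adjusted p = 3.74e-05), and Fhod3 had 22.7 ± 2.23 and 3.33 ± 1.21 CPM in the same groups (2.76 ± 0.22, adjusted p = 3.54e-05). Chrnd rose by 1.87 ± 0.43 (edgeR adjusted p = 0.0076), Slc4a3 by 1.503 ± 0.21 (0.00053), Des by 1.24 ± 0.35 (0.019) and Speg by 0.70 ± 0.20 (0.0204). Neb fell by 2.37 on the log2 scale, with an SE of 0.54 (edgeR adjusted p = 0.00722). Without clone 32-31 of KO_ERRb_AF2M6, Fhod3, Slc4a3 and Atp2a3 were called and the other 4 calls were lost. Without clone 14-1-10 of KO_ERRg_wt the calls of Des, Speg and Neb were lost, and without 14-11 that of Des.

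Against the TFIIH-binding deficient ERR beta (KO_ERRg_wt against KO_ERRb_DBDm6), 3 of the 8 genes rose and 1 fell, where 19.4% of all tested genes were called, and the median was 0.41 over the 8 genes. The 3 were Atp2a3 (3.25 ± 0.29, edgeR adjusted p = 0.00015), Fhod3 (1.92 ± 0.21, adjusted p = 0.000372) and Slc4a3 (0.68 ± 0.20, adjusted p = 0.037), and the one that fell was Neb (−1.74 ± 0.53, adjusted p = 0.0433). Des had 11.8 ± 0.423 CPM in KO_ERRg_wt and 10.7 ± 2.29 CPM in KO_ERRb_DBDm6, a log2 fold change of 0.14 ± 0.34 (edgeR adjusted p = 0.804), and Speg had 0.14 ± 0.20 (0.662). Fhod3 and Atp2a3 were called in each of the 4 settings without a clone, and Slc4a3 and Neb in none of them.

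Between mutants few of the genes were called. In KO_ERRb_DBDm6 against KO_ERRb_DBDm3, Chrnd rose, with 0.599 ± 0.0597 CPM in KO_ERRb_DBDm6 and 0.127 ± 0.0456 CPM in KO_ERRb_DBDm3 (SD, n = 2 each; 2.24 ± 0.49, edgeR adjusted p = 0.0363), where 3.06% of all tested genes were called. The call rests on 26 and 32 counts against 5 and 7, and was kept in 1 of the 4 settings with a clone left out, that without 9-8. The other 7 were not called in that comparison. Among them Des had 0.98 ± 0.34, Speg 0.62 ± 0.20 and Slc4a3 0.64 ± 0.20 (edgeR adjusted p = 0.131, 0.102 and 0.103). For each, both KO_ERRb_DBDm6 clones stood above both KO_ERRb_DBDm3 clones. The single libraries of the groups also stood apart for Des and Slc4a3, but not for Speg. For Speg the first libraries of 10-24 and 10-26 had 3.04 and 2.96 CPM, below both 9-8 libraries (3.05 and 3.23 CPM). The second libraries of 10-24 and 10-26 lay above all KO_ERRb_DBDm3 libraries. Neb there had −0.08 ± 0.48 with all clones, 1.34 without 9-8 (edgeR adjusted p = 0.00972) and −0.79 without 9-6, each of these 2 a call. Atp2a3, not called, had 0.06 with all clones, −0.20 without 9-8 and −0.22 without 10-26.

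In KO_ERRb_AF2M6 against KO_ERRb_DBDm3, Fhod3 fell, with 3.33 ± 1.21 CPM in KO_ERRb_AF2M6 and 7.64 ± 1.45 CPM in KO_ERRb_DBDm3 (−1.19 ± 0.22, edgeR adjusted p = 0.0368), where 0.643% of all tested genes were called. Without clone 32-31 the call was lost (adjusted p = 0.147). Neb, not called with all clones (0.55 ± 0.48), was called higher without 9-8. In KO_ERRb_AF2M6 against KO_ERRb_DBDm6, edgeR called 0 of the 8 genes and 0% of all tested genes. At an unadjusted p below 0.05 it had 5 of the 8 and 2119 of all genes, and DESeq2 called 178 genes, with Fhod3 (log2 fold change −0.83 by DESeq2, adjusted p = 0.0255) and Slc4a3 lower among them. In edgeR, Des had −1.10 ± 0.34 and Slc4a3 −0.83 ± 0.20 there (edgeR adjusted p = 0.252 and 0.23), with both KO_ERRb_AF2M6 clones under both KO_ERRb_DBDm6 clones. The single libraries stood apart for Slc4a3 but not for Des. For Des the second library of 32-25, at 7.84 CPM, lay above the first of 10-24, at 7.66 CPM. Without clone 32-25, Fhod3 was called lower by edgeR (−1.27, adjusted p = 0.0104). The shift of chromosome 6 also differed between clones of the tested comparisons. Leaving out a clone changes the clones, their number and the shift together, so the part of the shift was not tested.

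The 2 clones of a group often differed in the same direction for most of the 8 genes. In KO_ERRb_wt, clone 8-3 was above clone 8-4 for 7 of the 8, with ratios up to 2.22 (Chrnd), and Neb was the exception at 0.583. In KO_ERRb_AF2M6, clone 32-25 was above 32-31 for 7 of the 8, again with Neb as the exception, at 0.691. In WT_mock, clone 5-2 was above 5-5 for 7 of the 8, with the highest ratio for Tagln (2.75) and Fhod3 at 0.991. Over all genes the median ratio of the 2 clones lay between 0.998 and 1.007 in each of the 7 groups. In KO_ERRb_DBDm3 and KO_ERRb_DBDm6 the second clone was above the first for 6 of the 8, and in KO_mock and KO_ERRg_wt the split was 5 to 3.

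**Figure D3:**
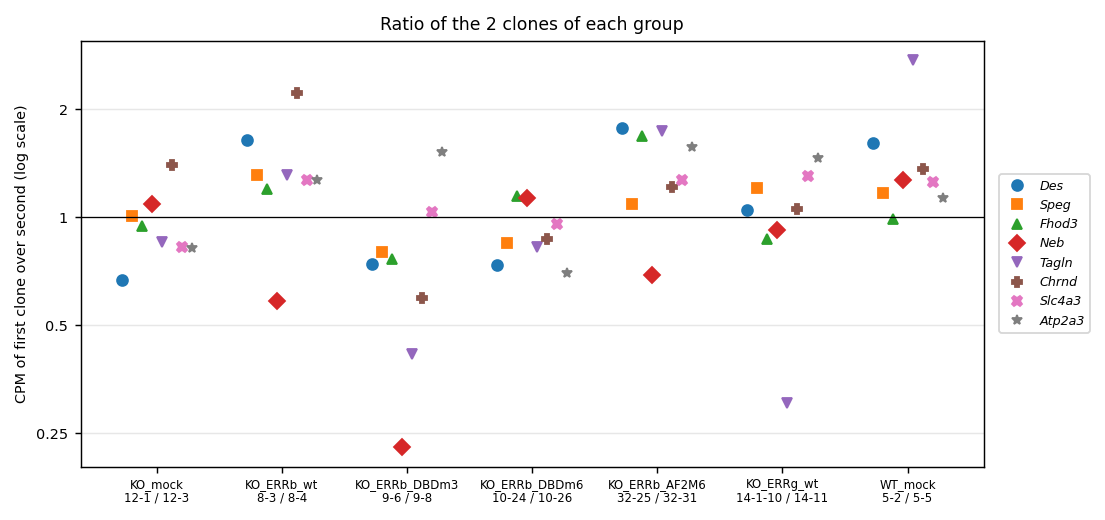
Ratio of the CPM of the 2 clones of each group (log scale) for the 8 genes, with the first-named clone over the second. Ratios run from 0.229 for Neb in KO_ERRb_DBDm3 to 2.75 for Tagln in WT_mock, and 7 of 8 lie on one side of 1 in KO_ERRb_wt, KO_ERRb_AF2M6 and WT_mock.

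Across the 14 clones, and as a description only since the clones share their groups, the log2 CPM of Slc4a3 correlated with that of Speg (Pearson's r = 0.916), Atp2a3 (0.902) and Chrnd (0.893), and that of Des with Speg (0.900). Neb correlated negatively with each of the other 7 genes, from −0.830 with Atp2a3 to −0.454 with Des. Tagln and Fhod3 were related the least, at 0.244. The genes whose log2 CPM was most like that of a member, among 10906 candidates whose log2 CPM averaged at least 1, were Ndufaf7 (r = 0.965) and Nfkb1 (0.958) for Des, March2 (0.978) and Lyrm9 (0.959) for Speg, Mturn (0.959) and Nudt12 (0.953) for Fhod3, and Myef2 (0.987) and Mafg (0.981) for Neb. For Tagln they were Fam65a (0.936) and Cgn (0.930), for Chrnd Reps1 (0.945) and Ncoa6 (0.945), for Slc4a3 Dnajc22 (0.978) and Fastkd1 (0.970), and for Atp2a3 H2-M5 (0.984) and Hap1 (0.977).

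Des, Speg and Slc4a3 lie close together on chromosome 1: Speg starts 15.005 kb and Slc4a3 starts 186 kb beyond the start of Des. Within 500 kb of the Des start, 20 other tested genes were annotated. In KO_mock against WT_mock, 2 of the 20 rose, 4 fell and 14 were not called, where 37.4% of all tested genes were called, and the median log2 fold change was −0.08 over the 20 and −0.003 over all genes. Inha, which encodes the inhibin alpha chain, fell to 0.0660 CPM in KO_mock, against 0.920 CPM in WT_mock (−3.74 ± 0.72, edgeR adjusted p = 0.0028). Cnppd1 fell (−1.22 ± 0.15, edgeR adjusted p = 0.000359) and so did Fam134a, which encodes an endoplasmic reticulum protein (−0.70 ± 0.14, adjusted p = 0.00356), while the DNA repair gene Nhej1 rose (0.87 ± 0.20, adjusted p = 0.00673), a call that was lost without 5-2 or 12-1 (adjusted p = 0.0767 and 0.0507). The other 2 calls, outside the rule for names and picked after their values were seen, were Obsl1, a cytoskeletal relative of obscurin that fell (−1.04 ± 0.31), and the kinase gene Stk16 that rose (0.33 ± 0.09). In KO_ERRb_wt against KO_mock edgeR and DESeq2 each called 0 of the 20, where edgeR called 1.85% of all tested genes, and 5 of the 20 had an unadjusted p below 0.05 in edgeR. In KO_ERRg_wt against KO_mock 4 rose and 2 fell, where 38.3% of all tested genes were called.

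**Figure D4:**
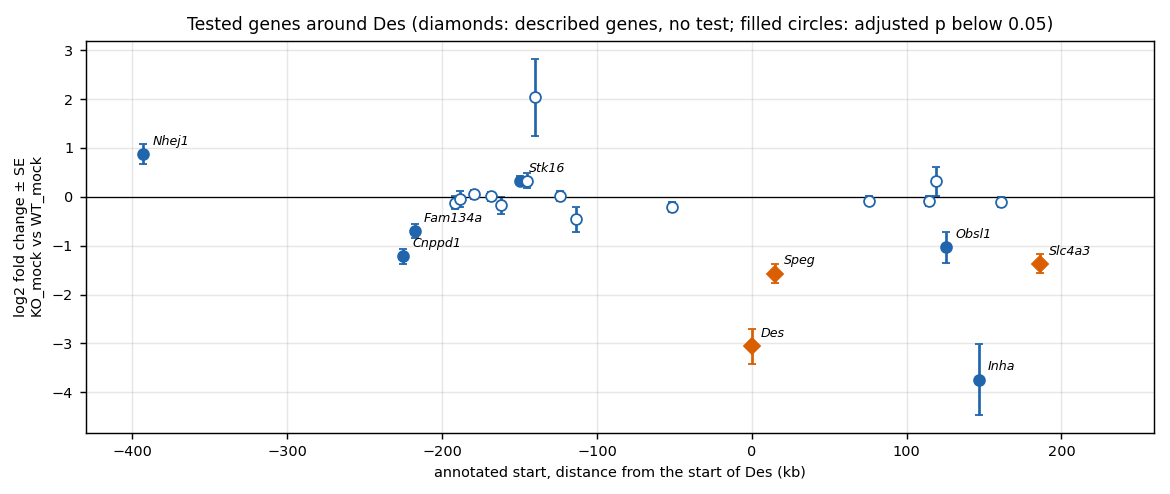
Log2 fold changes with standard errors (bars), KO_mock against WT_mock, of the tested genes around Des against the distance of their start from that of Des in kb. Des, Speg and Slc4a3 (diamonds, not tested) lie at −3.06, −1.57 and −1.37, and of the 20 other genes 4 fell and 2 rose (filled circles).

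Other genes of muscle structure were followed in lists that leave out the 8. In KO_mock against WT_mock, of 20 tested genes of the thick, thin and titin filaments 4 rose and 3 fell, where 37.4% of all tested genes were called, and the median log2 fold change was −0.18. Leaving out 1 clone gave 2 to 4 called higher and 0 to 4 lower, with none lower without 5-2 or 12-1. Titin (Ttn), the spring of the sarcomere, rose to 170 ± 3.52 CPM in KO_mock, against 63.9 ± 21.99 CPM in WT_mock (1.41 ± 0.26, edgeR adjusted p = 0.00234). Mylpf, a fast muscle myosin light chain, rose (0.66 ± 0.08, adjusted p = 0.000218) and so did the atrial light chain Myl7 (0.83 ± 0.23, adjusted p = 0.0158), while Mybpc2, a fast myosin binding protein, fell (−1.13 ± 0.30, adjusted p = 0.0142). The call of Myl7 was lost without 5-2, 12-1 or 12-3, and that of Mybpc2 without any 1 of the 4 clones (adjusted p from 0.0547 to 0.0811). In KO_ERRb_wt against KO_mock, Mylpf was the one of the 20 that edgeR called (−0.43 ± 0.07, adjusted p = 0.0181), and DESeq2 called 2, both lower. The edgeR call of Mylpf was lost without any 1 of the 4 clones (adjusted p from 0.0532 to 0.178).

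Of 24 tested genes of the Z-disc, M-band and costamere, 2 rose and 7 fell in KO_mock against WT_mock. That share was near the 37.4% of all tested genes called, and the list's median was −0.48. The actin crosslinker Flnc fell (−1.19 ± 0.16, edgeR adjusted p = 0.000537), as did the Z-disc protein gene Pdlim5 (−0.52 ± 0.08, adjusted p = 0.000947) and the chaperone gene Cryab (−2.39 ± 0.59, adjusted p = 0.00924), while Palld, an actin scaffold, rose (0.88 ± 0.26, adjusted p = 0.0203). The call of Cryab was lost without 5-2, 12-1 or 12-3, and that of Palld without any 1 of the 4 clones (adjusted p from 0.0522 to 0.108) and without the filter on low counts (0.0657). Of 24 tested genes of smooth muscle and the actin cytoskeleton 2 rose and 13 fell, where 37.4% of all tested genes were called. The list's median was −0.35. Among these Tagln2, a close relative of Tagln, fell to 98.2 ± 3.97 CPM in KO_mock, against 203 ± 18.7 CPM in WT_mock (−1.04 ± 0.17, edgeR adjusted p = 0.00148), Cald1, which encodes caldesmon, fell (−1.19 ± 0.21, adjusted p = 0.00195), and Tagln3 rose (1.47 ± 0.22, adjusted p = 0.000884). Vinculin (Vcl) also fell (−0.88 ± 0.09, adjusted p = 0.000163), and it lies on chromosome 14, whose median gene was −0.61 in that comparison. With 1 clone left out, the number of smooth muscle and actin genes called lower was 3 without 5-2, 6 without 12-1, 6 without 12-3 and 11 without 5-5. In the Z-disc list it was 7 without 5-5 and 2 without any other of these clones. In KO_ERRb_wt against KO_mock edgeR called 0 genes of either list and 1.85% of all tested genes. At an unadjusted p below 0.05 it had 8 of the Z-disc and 6 of the smooth muscle list. DESeq2 called 2 of the Z-disc list, Palld among them (−0.78, adjusted p = 0.032), and 1 of the smooth muscle list, all lower.

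**Figure D5:**
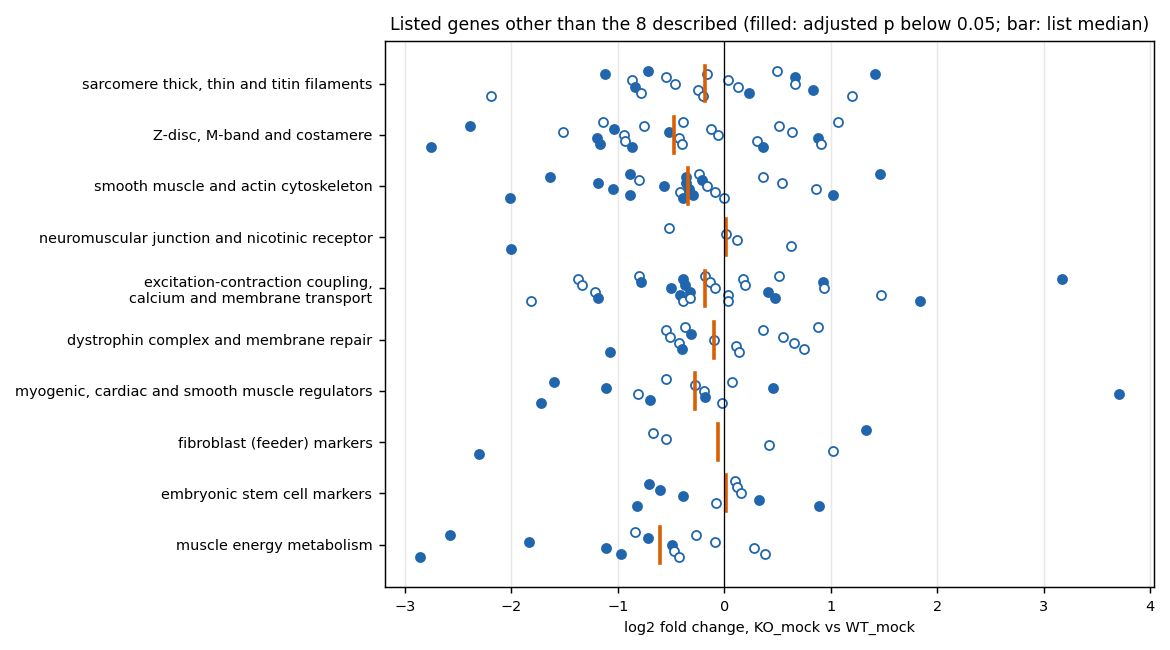
Log2 fold changes, KO_mock against WT_mock, of the tested genes of 10 lists that leave out the 8 genes described, with filled points at an edgeR adjusted p below 0.05 and bars at each list's median. Medians run from −0.61 for muscle energy metabolism to 0.01 for the embryonic stem cell markers, and Casq2 (3.17) and Mef2c (3.71) are farthest to the right.

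Of the neuromuscular junction genes, 5 were tested beside Chrnd. In KO_mock against WT_mock 1 of the 5 was called, where 37.4% of all tested genes were called. This was Chrnb1, which encodes the beta subunit of the same receptor. It fell to 1.25 ± 0.034 CPM in KO_mock, against 5.04 ± 1.38 CPM in WT_mock (−2.01 ± 0.23, edgeR adjusted p = 0.000218). It rose to 4.19 ± 0.712 CPM in KO_ERRb_wt, against 1.25 ± 0.034 CPM in KO_mock (1.74 ± 0.23, edgeR adjusted p = 0.00492), and to 7.32 ± 0.647 CPM in KO_ERRg_wt, against the same KO_mock level (2.55 ± 0.23, adjusted p = 2.48e-05). Chrnb1 was named for its change in KO_mock against WT_mock. Both rises are measured from the same KO_mock clones, so these tests are not independent of that choice. The call in KO_ERRb_wt was lost without 12-1, 12-3 or 8-3 (adjusted p = 0.0916, 0.0747 and 0.0573). The alpha subunit gene Chrna1, chosen for mention after its values were seen, had 6 counts in all 26 libraries, and the gamma and epsilon subunit genes Chrng and Chrne had 25 each.

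Of 29 tested genes of excitation-contraction coupling, calcium handling and membrane transport, 5 rose and 7 fell in KO_mock against WT_mock, a share near the 37.4% of all tested genes, with a median of −0.18. With 1 clone left out, 1 to 4 were called higher, and 7 were called lower without 5-5 and 3 without any other of these clones. The calsequestrins, calcium stores of the sarcoplasmic reticulum, moved apart. Casq2, the cardiac form, had 15.3 ± 2.00 CPM in KO_mock and 1.70 ± 1.16 CPM in WT_mock (3.17 ± 0.59, edgeR adjusted p = 0.00248), while Casq1, the skeletal form, had 0.466 ± 0.0165 CPM in KO_mock and 1.07 ± 0.0950 CPM in WT_mock (−1.19 ± 0.26, adjusted p = 0.00511). In KO_ERRg_wt, Casq2 fell to 1.85 ± 0.167 CPM, against 15.3 ± 2.00 CPM in KO_mock (−3.04 ± 0.61, edgeR adjusted p = 0.00281). Asph fell in KO_mock (−0.42 ± 0.07, adjusted p = 0.00135), and so did the bicarbonate cotransporter Slc4a7, a relative of Slc4a3 on the shifted chromosome 14 (−0.79 ± 0.15, adjusted p = 0.00278).

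Of 15 tested genes of the dystrophin complex and membrane repair, 0 rose and 3 fell in KO_mock against WT_mock, where 37.4% of all tested genes were called, and 1 to 4 were called lower with 1 clone left out. Mtm1, which encodes the phosphatase myotubularin, fell to 7.93 ± 1.11 CPM in KO_mock, against 16.7 ± 0.682 CPM in WT_mock (−1.07 ± 0.13, edgeR adjusted p = 0.000287), and it rose in KO_ERRb_wt (0.63 ± 0.13, adjusted p = 0.0346) and in KO_ERRg_wt (1.34 ± 0.13, adjusted p = 3.35e-05), each against KO_mock. Mtm1 was named for its fall in the same KO_mock clones, so the tests of its rises are not independent of that choice. Dmd (−0.40 ± 0.13, adjusted p = 0.0304) and Dtnb (−0.31 ± 0.08, adjusted p = 0.00867) were the other 2 that fell. The call of Dmd was lost without 5-2, 12-1 or 12-3, that of Dtnb without 5-2 or 12-3, and that of Mtm1 in KO_ERRb_wt without any 1 of the 4 clones (adjusted p from 0.0686 to 0.323).

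Muscle energy metabolism was the list with the lowest median, −0.61. Of its 14 tested genes 0 rose and 7 fell in KO_mock against WT_mock, where 37.4% of all tested genes were called. The summed CPM of its 18 genes was higher in KO_mock, at 770 to 832 per library, against 636 to 768 in WT_mock. Fabp3, the fatty acid carrier of heart, had 4.56 ± 0.371 CPM in KO_mock and 16.3 ± 5.04 CPM in WT_mock (−1.84 ± 0.21, edgeR adjusted p = 0.000246). Cpt1b, which admits fatty acids to muscle mitochondria, had 2.696 ± 0.5002 CPM in KO_mock and 16.1 ± 6.66 CPM in WT_mock (−2.58 ± 0.37, adjusted p = 0.000691), with 94.8% of its exon bases shared with a read-through gene of Chkb and Cpt1b. S100a1 (−2.86 ± 0.71, adjusted p = 0.00996) and the cytochrome oxidase subunit gene Cox7a1 (−0.72 ± 0.18, adjusted p = 0.00962) fell too, the first no longer called without 5-2 or 12-1 and the second not without 12-1. In KO_ERRg_wt against KO_mock 8 of the 14 rose and 0 fell, where 38.3% of all tested genes were called. Fabp3 (3.70 ± 0.22, edgeR adjusted p = 4.39e-06) and Cpt1b (3.68 ± 0.38, adjusted p = 5.31e-05) were among those that rose. In KO_ERRb_wt against KO_mock, where edgeR called 1.85% of all tested genes, these 2 genes were the ones called, both higher (Fabp3 1.62 ± 0.21, Cpt1b 1.98 ± 0.36). These 2 comparisons share KO_mock with each other and with KO_mock against WT_mock, by which the genes were named. Their tests are not independent of that choice. With 1 clone left out, the number called lower in KO_mock against WT_mock was 2 without 12-1, 3 without 5-2 and 5 without 12-3 or 5-5, and both calls in KO_ERRb_wt were lost without 12-1, 12-3 or 8-3, and that of Cpt1b also without the filter on low counts (adjusted p = 0.0558).

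The cells carried ESC markers and almost no RNA of the factors that define muscle lineages. The 10 ESC markers summed to 3891 to 5006 CPM in every library, with Pou5f1, Sox2 and Nanog among them. Of the 10, 2 rose and 4 fell in KO_mock against WT_mock, where 37.4% of all tested genes were called. Nanog fell (−0.71 ± 0.06, edgeR adjusted p = 7.18e-05) and Lin28a rose (0.89 ± 0.12, adjusted p = 0.000496). Myod1, the master factor of skeletal muscle, had 0 counts in all 26 libraries, which allows 3 counts over them. Myf5, Myf6, Myog, Pax3, Pax7, Myocd, Tbx5 and Hand2 had 7 to 31 counts over all 26 libraries. Of 25 listed regulators of skeletal, cardiac and smooth muscle, 24 were in the count table and 13 were tested. Beside the 37.4% of all tested genes called in KO_mock against WT_mock, 2 of the 13 rose and 5 fell. These became 0 or 1 called higher and 1 to 3 lower with 1 clone left out. Mef2b fell (−1.72 ± 0.34, edgeR adjusted p = 0.0032), with 93.8% of its exon bases shared with a read-through gene. The cardiac factors Tbx20 (−1.60 ± 0.40, adjusted p = 0.0104) and Prox1 (−1.11 ± 0.30, adjusted p = 0.0133) fell as well, and Mkl2, a coactivator of serum response factor, rose (0.46 ± 0.11, adjusted p = 0.00676). The call of Tbx20 was lost without 5-2, 12-1 or 12-3, that of Prox1 without 5-5, 12-1 or 12-3 and by DESeq2 (adjusted p = 0.118), and that of Mkl2 without 5-2 (0.0742). Mef2c, named here after its values were seen, had 0.166 CPM in KO_mock and 0.00999 CPM in WT_mock.

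Fibroblast markers, which feeder cells would bring, summed to 18.1 to 24.0 CPM per library in KO_mock, 15.6 to 17.3 in KO_ERRb_wt, 12.3 to 17.2 in KO_ERRb_DBDm3, 12.8 to 15.6 in KO_ERRb_DBDm6, 8.96 to 15.9 in KO_ERRb_AF2M6 and 12.0 to 13.2 in KO_ERRg_wt, against 15.5 to 17.2 in WT_mock. Of its 13 genes, 7 had at most 5 counts in every library, Postn and Fap were at 0 in all of them, and Dcn and Lum had 7 and 4 counts in all. Others of the list were not silent, and most of the sum was Col5a1, with 7013 counts over the 26 libraries. Thy1 had 1393, Pdgfrb 912 and Pdgfra 307. Col5a1, Pdgfrb and Pdgfra were named here after their values were seen. Of the 6 tested fibroblast markers, 2 were called in KO_mock against WT_mock, where 37.4% of all tested genes were called. Thy1 rose (1.34 ± 0.42, edgeR adjusted p = 0.0278) and Col1a1 fell (−2.31 ± 0.73, adjusted p = 0.0285), and Col1a1 had no more than 11 counts in a library. The call of Thy1 was lost without any 1 of the 4 clones (adjusted p from 0.0569 to 0.179), and that of Col1a1 without 5-5, 12-1 or 12-3 and by DESeq2 (0.104).

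In KO_ERRg_wt against KO_mock, which shares KO_mock with the comparison above, most lists had calls in both directions, where 38.3% of all tested genes were called. The median gene of chromosome 6 was at −0.38 and that of chromosome 8 at −0.53 in this comparison. Of 20 filament genes 2 rose and 5 fell, with Ttn (−0.94 ± 0.26, edgeR adjusted p = 0.0143) and Mylpf (−0.95 ± 0.08, adjusted p = 1.34e-05) lower. The call of Ttn was lost without any 1 of the 4 clones (adjusted p from 0.0530 to 0.0785) and without the filter on low counts (0.0573). Of 24 Z-disc genes 5 rose and 3 fell, of 24 smooth muscle and actin genes 6 rose and 7 fell, and of 29 coupling and transport genes 8 rose and 6 fell. Of 15 dystrophin complex genes 5 rose and 3 fell, with Dmd higher (0.89 ± 0.13, edgeR adjusted p = 0.000437), of 13 regulators 4 rose and 3 fell, of 6 fibroblast markers 0 rose and 2 fell, and of 10 ESC markers 5 rose and 3 fell. Leaving 1 clone out, 1 or 2 filament genes were called lower, 2 to 4 Z-disc genes higher and 0 to 2 lower, 2 or 3 dystrophin complex genes higher, and 2 regulators higher and 0 or 1 lower. Without the genes of chromosomes 6, 8 and 14, the counts higher and lower were 2 and 5 of 17 filament genes, 3 and 1 of 17 Z-disc genes, 5 and 5 of 20 smooth muscle and actin genes, 6 and 4 of 23 coupling and transport genes, 5 and 1 of 12 dystrophin complex genes and 2 and 3 of 11 regulators. The part of the shifted chromosomes in the other calls was not tested.

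In KO_ERRb_wt against KO_mock, edgeR called 1.85% of all tested genes but 0 of the coupling and transport genes, the regulators and the fibroblast markers. Of these lists 2, 3 and 2 genes had an unadjusted p below 0.05. DESeq2 called 0 of the first and second lists and 1 fibroblast marker, Thy1, which was lower (−1.38, adjusted p = 0.0392). Among ESC markers edgeR called Nanog (0.33 ± 0.06, adjusted p = 0.0253), and this call was lost without 12-1, 12-3 or 8-3 (adjusted p = 0.287, 0.113 and 0.236).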

How the data were processed

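RNA-seq read counts per gene were made by the authors before deposit. Per the submitters' processing notes, reads were aligned with STAR 2.7.8a to mm10 and counted with featureCounts 2.0.10, and the file header gives featureCounts 2.0.1. Per the file headers, exons were counted by gene name on the reverse strand, a read in overlapping genes was counted for each, and multi-mapping reads were not counted. All 26 count columns were used. Per the labels, libraries were stranded total RNA depleted of ribosomal RNA, read as single ends of 100 bp; the labels differ on whether the medium held LIF.

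The libraries of a clone were added, and 14 clones in 7 groups were fitted together with edgeR 4.0.16 in R 4.3.3 (filterByExpr, TMM, robust quasi-likelihood F test, prior count 0.125). P-values were adjusted by Benjamini-Hochberg over 15238 genes, and the SE was taken as the size of the log2 fold change divided by √F. TMM factors ran from 0.972 to 1.05. The fit was tested on simulated data. Alternatives were DESeq2 1.42.0, RLE scaling, no filter, libraries as samples with and without a replicate block, each clone left out, and, added after seeing the data, chromosomes 6, 8 and 14 left out of the lists. Promoters came from RefSeq. The 3 counts allowed for a count of 0 cover counting error only.

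The 8 genes and the lists were chosen with earlier results of these data known. Named genes beside the 8 were Esrrb and Esrrg, up to 4 called genes of smallest p per list in KO_mock against WT_mock, the 2 genes most like each of the 8, and up to 4 called neighbours of Des. Others are marked as chosen after their values were seen. List genes and neighbours were named from KO_mock against WT_mock, so their tests in other comparisons with KO_mock are not independent of the naming.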

Additional observations from a re-analysis of the deposited data

How the results depend on the processing

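Scaling by RLE changed no count of called genes by more than 1.5 times. DESeq2 called 1278 genes in KO_ERRb_DBDm6 against KO_ERRb_DBDm3, 554 in KO_ERRb_AF2M6 against KO_ERRb_DBDm3, 178 in KO_ERRb_AF2M6 against KO_ERRb_DBDm6 and 930 in KO_ERRb_wt against KO_mock, where edgeR called 466, 98, 0 and 282. Without a filter on low counts edgeR called 1 in KO_ERRb_AF2M6 against KO_ERRb_DBDm6, and the calls of Neb in KO_ERRg_wt against KO_ERRb_DBDm3 and KO_ERRb_DBDm6, and of Des in the first, were lost. With the 26 libraries as samples the 4 counts were 3273, 1942, 1174 and 2678, and with libraries as samples and a replicate block 3099, 1805, 999 and 2508. The block moved KO_mock against WT_mock to 7837 calls, against 7840 on the same 24 libraries without it. For most pairs of clones the library numbers did not go together: over 66 pairs the correlation of deviations had a median of 0.00863 and was below 0.1 in 55. The highest was 0.436, and whether the libraries of some clones were paired was not tested. The titles of the 2 KO_ERRg_wt libraries give no replicate number, and these were left out of the fits with the block. The cause of these changes was not tested.

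With 1 clone left out, the calls ranged from 2283 to 4655 in KO_mock against WT_mock, 8 to 234 in KO_ERRb_wt against KO_mock, 3386 to 3819 in KO_ERRg_wt against KO_mock, 1214 to 5255 in KO_ERRg_wt against KO_ERRb_DBDm3, 22 to 2018 in KO_ERRb_DBDm6 against KO_ERRb_DBDm3, 19 to 1547 in KO_ERRb_AF2M6 against KO_ERRb_DBDm3, 881 to 1187 in KO_ERRg_wt against KO_ERRb_DBDm6, 0 to 539 in KO_ERRb_AF2M6 against KO_ERRb_DBDm6 and 2547 to 4411 in KO_ERRg_wt against KO_ERRb_AF2M6. A group left with 1 clone is assumed to vary like the others.

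Directions that turned did so with a clone left out, and their log2 fold changes then ranged as follows. In KO_ERRb_AF2M6 against KO_ERRb_DBDm3, Des ranged from −0.60 to 0.23, Speg from −0.089 to 0.23, Neb from −0.16 to 1.97 and Tagln from −0.16 to 1.08. In KO_ERRb_DBDm6 against KO_ERRb_DBDm3, Neb ranged from −0.79 to 1.34 and Atp2a3 from −0.22 to 0.41. In KO_ERRg_wt, Tagln ranged from −1.59 to 0.18 against KO_ERRb_DBDm3, and against KO_ERRb_DBDm6 Des ranged from −0.062 to 0.38 and Speg from −0.0097 to 0.26. Against KO_mock, Fam134a ranged from −0.16 to 0.080 and Cryab from −1.03 to 1.40 in KO_ERRg_wt, and Ttn from −0.78 to 0.13 and Fam134a from −0.089 to 0.29 in KO_ERRb_wt.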
